A study of Saccharomyces cerevisiae with 12 samples.

Results

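The genes of 3 nuclear export receptors of budding yeast, MEX67, MTR2 and CRM1 (also called XPO1), were followed in RNA-seq counts of 12 libraries. They were taken by name from an annotation of 20619 features that holds 6692 coding genes, of which 6230 have a feature on the opposite strand over at least 0.5 of the gene. Total lysate and cytoplasm of 2 strains, both labelled with the BY4741 background, gave 3 libraries each. Wild-type cells carry both receptor genes on the chromosomes. The other strain, mex67-5 xpo1-1, is called the mutant here, and the study's strain list gives chromosomal MEX67 as replaced by HIS3 and chromosomal XPO1 as replaced by TRP1, with the temperature-sensitive alleles mex67-5 and xpo1-1 on plasmids. MTR2 is not altered in that list. Cells of both strains were turned into spheroplasts and kept at 37 °C for 1 h, so wild type went through the same shift. A total lysate was taken from the shifted suspension before the rest was lysed and spun to give the cytoplasm. The methods describe the replicates as biologically independent. Counts from the plasmid and from the chromosome cannot be told apart in these files, nor can more gene copies be told apart from more RNA per copy.

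Mex67 and Mtr2 form the heterodimer that carries mRNAs through the nuclear pore. The dimer is brought to the transcript by adaptor proteins and is stripped off on the cytoplasmic side by the helicase Dbp5. Crm1 is a karyopherin that binds cargo with a leucine-rich export signal together with the GTP-bound form of the small GTPase Ran. In yeast it also takes part in the export of ribosomal subunits and of small nuclear RNAs.

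The intergenic features before MEX67 and CRM1 held RNA that differed between the strains by more than the mRNAs of the genes themselves did. The stretch directly before each gene is shown, also that of MTR2, the gene that was left in place. Each is read 5′ to 3′ on the strand of its gene from the RefSeq sequence of the R64 assembly, to which sacCer3 corresponds, and ends at the base before the annotated transcript. The MEX67 stretch is chrXVI:230907-231053 on the minus strand, the whole gap of 147 bases to the divergent gene YPL168W. The MTR2 stretch is chrXI:93800-94099 on the minus strand and the CRM1 stretch is chrVII:931928-932227 on the plus strand. Capitals mark the bases that belong to the intergenic features whose counts are given further on. For CRM1 they are only 251 of the 1089 bases of that feature, and the shown part was not counted on its own.
MEX67: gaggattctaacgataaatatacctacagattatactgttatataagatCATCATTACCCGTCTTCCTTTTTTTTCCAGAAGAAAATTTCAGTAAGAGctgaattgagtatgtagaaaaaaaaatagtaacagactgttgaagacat
MTR2: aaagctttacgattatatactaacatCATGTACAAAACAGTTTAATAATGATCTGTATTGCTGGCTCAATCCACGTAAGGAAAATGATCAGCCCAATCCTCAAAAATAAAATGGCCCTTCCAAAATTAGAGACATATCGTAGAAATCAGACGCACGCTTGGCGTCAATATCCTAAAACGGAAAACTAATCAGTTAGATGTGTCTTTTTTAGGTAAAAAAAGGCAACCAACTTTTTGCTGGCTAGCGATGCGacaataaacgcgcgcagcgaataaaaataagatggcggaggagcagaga
CRM1: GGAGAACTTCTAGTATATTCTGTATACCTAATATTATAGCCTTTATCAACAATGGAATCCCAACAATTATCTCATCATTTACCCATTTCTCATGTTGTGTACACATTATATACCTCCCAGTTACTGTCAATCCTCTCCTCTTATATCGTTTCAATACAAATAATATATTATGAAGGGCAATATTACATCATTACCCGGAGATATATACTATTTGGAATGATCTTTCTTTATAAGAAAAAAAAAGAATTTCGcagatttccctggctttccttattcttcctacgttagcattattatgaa

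TTACCCG, the core bound by the general regulatory factor Reb1, was searched on both strands together with the TATA box TATAAA and the heat shock element, taken as GAA, TTC and GAA with 2 free bases after each of the first units. TTACCCG occurred once in the MEX67 stretch and once in the CRM1 stretch, both times within the capitals, and did not occur in the MTR2 stretch. It was present in 7.05% of 6663 coding gene windows of 147 bases and in 8.64% of windows of 300 bases. TATAAA occurred once, before CRM1, and was present in 44.7% of the longer windows. The heat shock element was in none of the 3 stretches and in 0.900% of the longer windows. The matches are letters in the reference, and the plasmid sequences of the mutant were not read.

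Counts per library summed to between 24532091 and 37361004, with TMM factors between 0.815 in wild-type totals and 1.40 in mutant cytoplasm. Mitochondrial features took between 2.32 and 14.3% of the counts. The labels name a library kit that does not mark strand, and yet the counts differed by strand. Of 6173 coding genes with counts on both strands, 81.3% had fewer counts per base on their own feature than on the opposite one, with a median log2 ratio of -3.52. The mRNA was therefore read from the opposite-strand feature and antisense RNA from the feature of the gene, a reading that rests on the counts alone. Only 1 opposite-strand feature covered at least 0.5 of each gene: 77.9% of MEX67 (YPL169C), 69.3% of MTR2 (YKL186C) and 93.1% of CRM1 (YGR218W). A point mutation cannot be checked in counts, but the markers could be. The feature that reads HIS3, an enzyme of histidine synthesis, held 329, 44 and 43 counts in wild-type totals, with replicate 1 far above the other two, and 13407, 20357 and 17344 in mutant totals. For TRP1, an enzyme of tryptophan synthesis, these were 715, 589 and 589 against 3255, 3351 and 3518. LEU2, a leucine marker that the strain list does not place at either locus, went from 909, 717 and 669 to 6362, 9054 and 6872. URA3, a uracil marker, went the other way. The feature on its opposite strand, most of whose 5517 bases lie outside the gene, went from 9190, 6188 and 7242 to 4288, 5377 and 6323. The own feature of URA3 went from 261, 192 and 254 to 26, 13 and 31. HIS3, LEU2 and URA3 are mutated or deleted in the wild type of that list, and URA3 also in the mutant. The source of their wild-type counts was not tested.

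MEX67 mRNA, from chrXVI:228638-230906 on the minus strand with the coding part at 229039-230838, was several times higher in the mutant. In wild-type totals it held 2370, 1782 and 2038 counts, and in wild-type cytoplasm 2161, 2581 and 2294. In mutant totals it held 8532, 10014 and 11218 counts, and in mutant cytoplasm 10486, 11609 and 9557. Every mutant library lay above every wild-type library, by more than the replicate spread in either strain. By edgeR's quasi-likelihood test with Benjamini-Hochberg adjustment over all features tested, MEX67 mRNA rose 4.07-fold in totals (log2 2.03, SE 0.12, adjusted p = 3.5e-06). It rose 3.63-fold in cytoplasm (log2 1.86, SE 0.15, adjusted p = 1.4e-05). Strain differences were common, since 26.9% of 12360 features were called higher in mutant totals and 32.3% of 13578 in mutant cytoplasm. The 2 fold changes stood at the 96.2 and 92.3 percentiles of all features tested.

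Per base, MEX67 in totals moved from a range that overlapped that of its partner to one that overlapped that of CRM1. The genes were not tested against each other. In wild-type totals it had a mean of 41.8 ± 2.11 CPM per kb (SD, n = 3), MTR2 had 44.4 ± 1.02 and CRM1 133.9 ± 7.05. The ranges of MEX67 and MTR2 overlapped there, and CRM1 lay above both. In mutant totals MEX67 had 168.1 ± 8.96 CPM per kb against 48.6 ± 2.13 for MTR2 and 145.4 ± 23.7 for CRM1. MEX67 and CRM1 then overlapped, and MTR2 lay below both. In wild-type cytoplasm the means were 46.7 for MEX67, 35.0 for MTR2 and 109.4 for CRM1, and in mutant cytoplasm 167.7, 34.6 and 131.3 CPM per kb. Among 6230 mRNAs read in this way, MEX67 stood at the 70.9 percentile in wild-type totals and the 94.2 percentile in mutant totals.

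**Figure D1:**
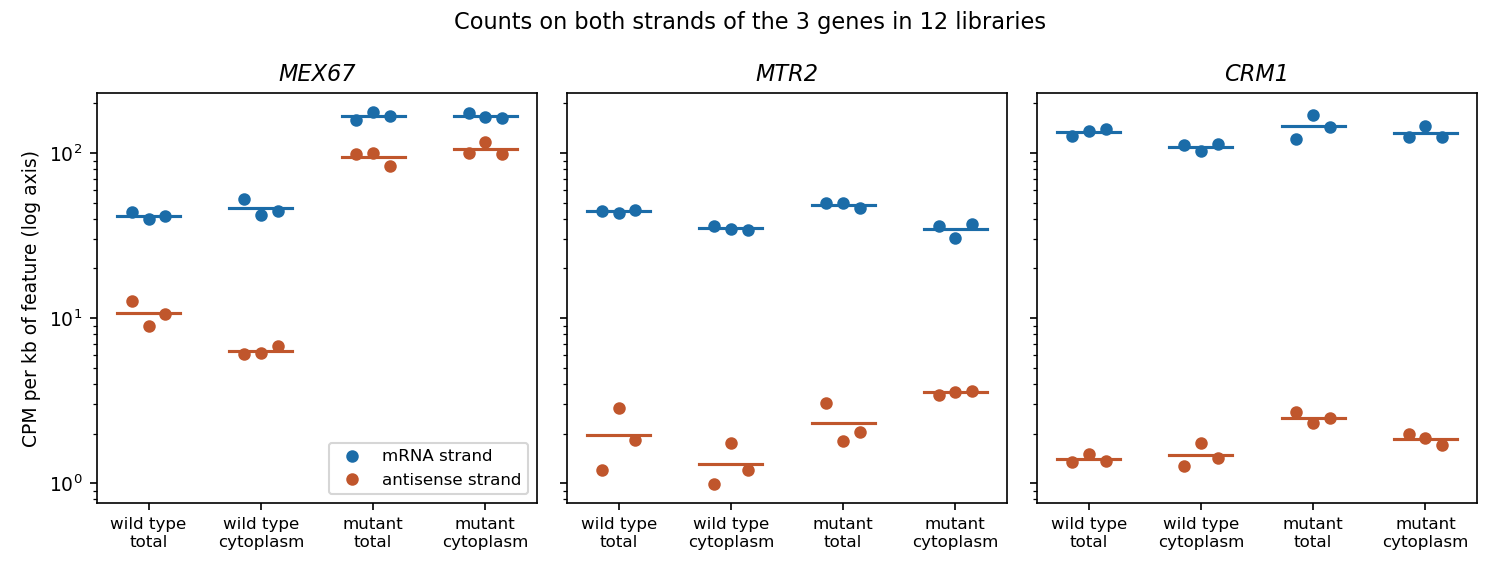
CPM per kb of feature (log axis) for the mRNA strand (blue) and the antisense strand (orange) of each gene; points are the 3 libraries of each group and bars their mean. MEX67 is higher on both strands in all 6 mutant libraries, whereas the mRNA strands of MTR2 and CRM1 in totals move from means of 44.4 to 48.6 and from 133.9 to 145.4.

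Counts on the antisense strand of MEX67 changed more than the mRNA did. They were 873, 514 and 668 in wild-type totals and 319, 482 and 446 in wild-type cytoplasm. They were 6806, 7256 and 7124 in mutant totals and 7759, 10488 and 7474 in mutant cytoplasm. The strains did not overlap in either fraction. The antisense count rose 8.87-fold in totals (log2 3.15, SE 0.16, edgeR adjusted p = 2.0e-06) and 16.8-fold in cytoplasm (log2 4.07, SE 0.16, edgeR adjusted p = 1.3e-06). Per base, it came to between 22.5 and 28.7% of the mRNA in wild-type totals and to between 49.5 and 62.1% in mutant totals. This feature also covers 453 bases of the 3′ end of the convergent gene DAP1, a heme-binding protein related to damage response, whose own transcript would be counted on the same strand. The feature that reads DAP1 outside the overlap held 609, 384 and 524 counts in wild-type totals and 630, 741 and 728 in mutant totals (log2 0.24, SE 0.13, edgeR adjusted p = 0.14).

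Both strands beside the 5′ end of MEX67 were also higher in the mutant. In the 49 bases shown in capitals before MEX67, RNA running towards the gene had 4, 2 and 0 counts in wild-type totals and 0, 5 and 0 in wild-type cytoplasm. It had 200, 252 and 272 counts in mutant totals and 326, 386 and 167 in mutant cytoplasm. The stretch was thus almost without counts in wild type and held counts in every mutant library (log2 6.59, SE 0.39, edgeR adjusted p = 4.2e-06 in totals). RNA running away from MEX67 there had 0 counts in all 3 wild-type totals and 96, 6 and 82 in mutant totals. It was too low for the test, and mutant total replicate 2 was far below the other two.

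The divergent gene YPL168W, whose product is not well characterized, carried the same change. Its own feature, which reads RNA antisense to it in the direction of MEX67, had 133, 61 and 65 counts in wild-type totals and 4175, 3713 and 4332 in mutant totals. It had 72, 108 and 96 counts in wild-type cytoplasm and 4778, 5962 and 3596 in mutant cytoplasm. That is a 40.6-fold rise in totals (log2 5.34, SE 0.24, edgeR adjusted p = 1.4e-06). The feature that reads YPL168W mRNA had 487, 391 and 424 against 2667, 3264 and 3023, a 5.85-fold rise (log2 2.55, SE 0.12, edgeR adjusted p = 1.7e-06). In mutant totals the mean level of RNA running in the direction of MEX67 was 73.9 CPM per kb over YPL168W, 147.4 over the 49 bases and 168.1 over the mRNA feature of MEX67. On the 3′ side, the DAP1 feature, which overlaps the last 453 bases of MEX67 on the strand that reads MEX67 mRNA, went from 230, 195 and 210 to 973, 766 and 1214 counts (log2 1.97, SE 0.14, edgeR adjusted p = 8.7e-06).

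Away from MEX67 the difference between strains became smaller and then large again. The intergenic features beyond DAP1 held between 4 and 11 counts in wild-type totals and between 18 and 37 in mutant totals, and were too low for the test. Farther out, features were looked at after their values were known. The one that reads REV3, a subunit of a DNA polymerase and the next gene beyond YPL168W, held between 880 and 1131 counts in wild-type totals and between 1071 and 1653 in mutant totals. Beyond the quiet stretch next to DAP1, a feature that reads OYE3, an NADPH oxidoreductase, had between 84 and 170 counts against between 6125 and 6678.

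**Figure D2:**
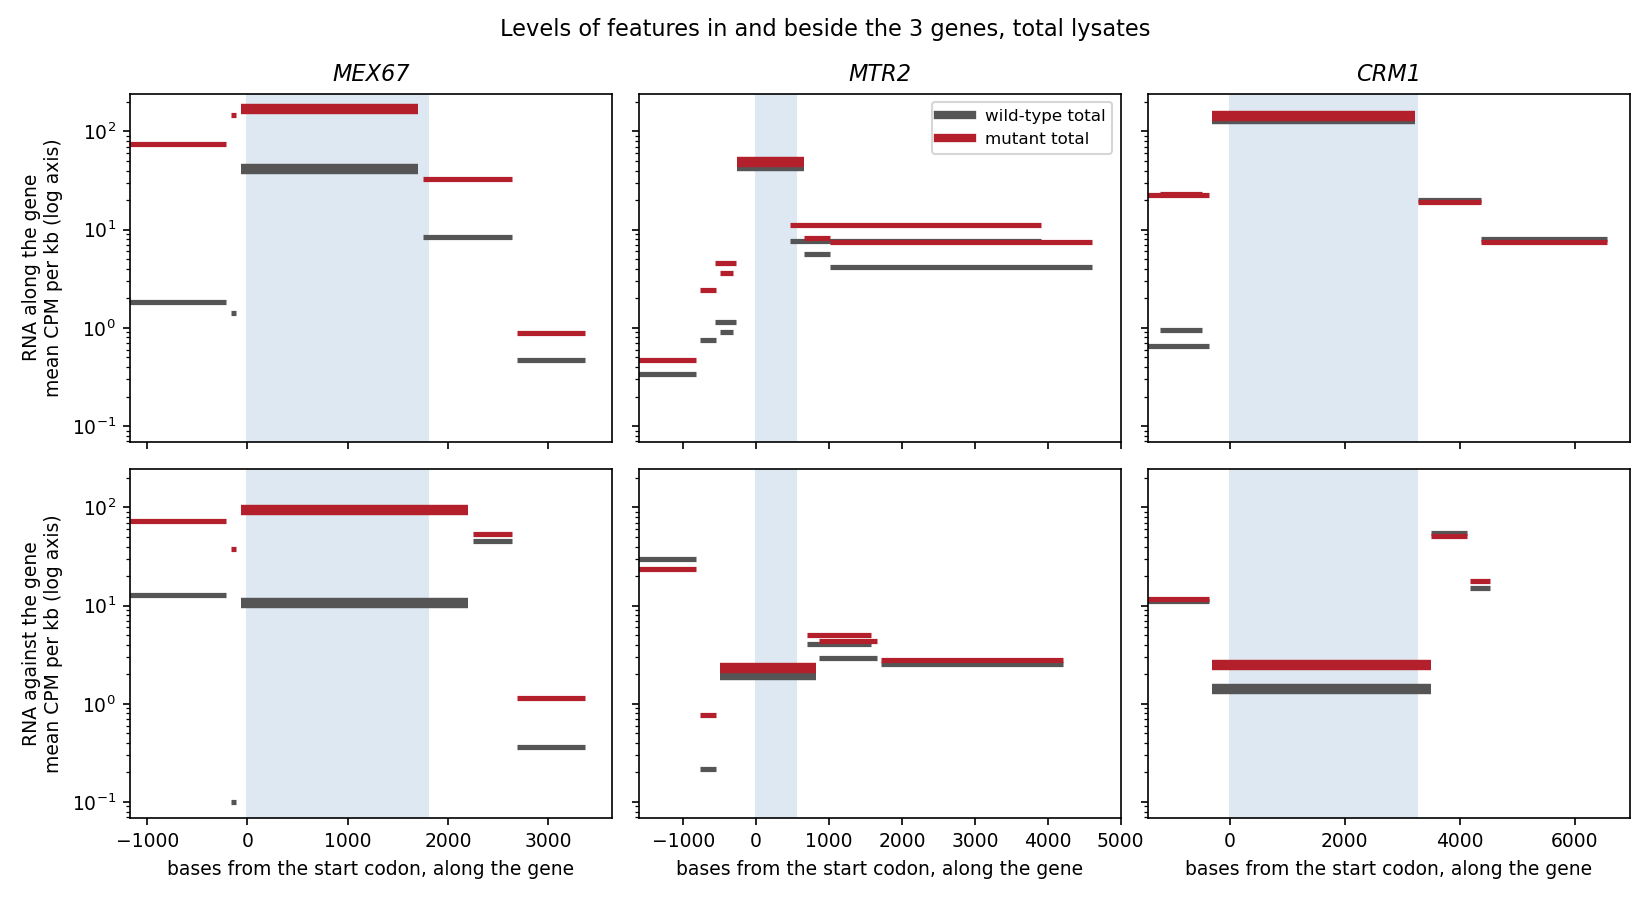
Mean CPM per kb (log axis) of every feature within 1000 bases of each gene in wild-type (grey) and mutant (red) total lysates, against distance in bases from the start codon. The upper row holds RNA along the gene and the lower row RNA against it, thick bars are the features of the gene itself, shading marks its coding part, and dotted bars at 0.1 stand for a level of 0. Grey and red part over MEX67 and on its 5′ side on both strands, and before CRM1 they part by 35.0-fold on the upper strand.

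MTR2 mRNA, from chrXI:92483-93799 on the minus strand with the coding part at 92744-93298, was not called between the strains. It had 1229, 1001 and 1159 counts in wild-type totals and 764, 1084 and 910 in wild-type cytoplasm. It had 1373, 1464 and 1589 in mutant totals and 1117, 1105 and 1135 in mutant cytoplasm. After scaling, the mutant totals lay just above the wild-type totals, between 42.1 and 45.7 CPM against between 39.7 and 41.5, and the cytoplasm libraries overlapped. No difference between strains passed the test in totals (log2 0.15, SE 0.093, edgeR adjusted p = 0.21) or in cytoplasm (log2 0.00067, SE 0.14, edgeR adjusted p = 0.997). With library totals as the scale both passed (log2 0.37 and 0.53). Its mRNA feature shares bases with the long feature XUT_11F-36 on the same strand, so both features can hold the same reads. By the strand reading used here, these reads come from RNA running in the direction of MTR2.

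The antisense count of MTR2 was low and rose in mutant cytoplasm. It was 48, 95 and 67 in wild-type totals, 30, 79 and 46 in wild-type cytoplasm, 122, 76 and 102 in mutant totals and 154, 186 and 159 in mutant cytoplasm. The totals overlapped between strains (log2 0.26, SE 0.32, edgeR adjusted p = 0.53), whereas all 3 mutant cytoplasm libraries lay above the wild-type ones (log2 1.44, SE 0.24, edgeR adjusted p = 7.3e-04). That is a 2.70-fold rise. Features beside MTR2 rose in mutant cytoplasm as well. XUT_11F-43 overlaps the 5′ end of the gene on the strand that reads MTR2 mRNA. It had 7, 24 and 14 counts in wild-type cytoplasm and 85, 62 and 63 in mutant cytoplasm (log2 1.97, SE 0.35, edgeR adjusted p = 9.8e-04), and was too low for the test in totals. Beyond the 3′ end of MTR2, features rose on both strands in mutant cytoplasm. On the strand of MTR2 antisense RNA, XUT_11R-39 rose by log2 1.24 and the own feature of YKL187C by 1.08. On the strand of MTR2 mRNA, SUT223, whose position covers all of YKL187C, rose by log2 1.40 and XUT_11F-36 by 1.05 (edgeR adjusted p between 1.2e-04 and 7.9e-04 for the 4 features). In totals, SUT223 rose by log2 0.87 and XUT_11F-36 by 0.55, whereas XUT_11R-39 (0.34) and YKL187C (0.17) did not pass the test. The feature antisense1594 shares bases with XUT_11R-39 on the same strand. It passed in totals (log2 0.61, SE 0.22, edgeR adjusted p = 0.044) and in cytoplasm (log2 1.13, SE 0.20, edgeR adjusted p = 0.0010). On the other side of MTR2, the feature that reads ASH1, a repressor of mating-type switching whose mRNA is carried to the bud, held 1217, 1228 and 1147 counts in wild-type totals and 934, 1098 and 1435 in mutant totals (log2 -0.31, SE 0.12, edgeR adjusted p = 0.056). Its counts were 1873, 1431 and 1208 in wild-type cytoplasm and 2200, 3194 and 2256 in mutant cytoplasm, where the strains overlapped after scaling (log2 0.40, SE 0.25, edgeR adjusted p = 0.20). The 225 bases in capitals before MTR2 had 5, 5 and 4 counts of RNA running towards the gene in wild-type totals and 13, 15 and 28 in mutant totals. They were too low for the test, and lay below the 200 to 272 counts found in the shorter stretch before MEX67 in mutant totals.

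CRM1 mRNA, from chrVII:932228-936034 on the plus strand with the coding part at 932541-935795, was the most abundant of the 3 in wild type. It had 13580, 12183 and 13806 counts in wild-type totals and 9174, 12529 and 11663 in wild-type cytoplasm. It had 13164, 19257 and 19252 in mutant totals and 14993, 20292 and 14702 in mutant cytoplasm. Mutant and wild-type totals overlapped, and the difference did not pass the test in totals (log2 0.14, SE 0.15, edgeR adjusted p = 0.47) or in cytoplasm (log2 0.28, SE 0.15, edgeR adjusted p = 0.13), although the cytoplasm libraries did not overlap. With library totals as the scale the difference in cytoplasm passed (log2 0.82), as it did with TMM factors from features that read mRNAs (0.55), and with mitochondrial scaling the value was -0.74 in totals and -0.21 in cytoplasm.

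RNA before CRM1 differed far more than the gene itself. The intergenic feature of 1089 bases upstream, part of which is shown in capitals, held 21, 23 and 15 counts of RNA running towards CRM1 in wild-type totals and 10, 17 and 19 in wild-type cytoplasm. It held 833, 722 and 902 in mutant totals and 741, 1136 and 194 in mutant cytoplasm. This was a 35.0-fold rise in totals (log2 5.13, SE 0.18, edgeR adjusted p = 5.9e-07) and a 35.7-fold rise in cytoplasm (log2 5.16, SE 0.59, edgeR adjusted p = 9.1e-05), with mutant cytoplasm replicate 3 the lowest of its group. XUT_7R-426, which lies inside this stretch and shares its reads, rose by log2 4.61 in totals (SE 0.22, edgeR adjusted p = 1.7e-06). On the other strand of the same stretch, counts were 346, 328 and 339 in wild-type totals and 453, 355 and 447 in mutant totals (log2 0.070, SE 0.13, edgeR adjusted p = 0.69).

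Antisense counts over CRM1 were few and rose in mutant totals. They were 155, 145 and 144 in wild-type totals and 111, 229 and 157 in wild-type cytoplasm, and 310, 282 and 357 in mutant totals and 257, 283 and 215 in mutant cytoplasm. Totals did not overlap between strains, and the 1.80-fold difference passed the test (log2 0.85, SE 0.13, edgeR adjusted p = 6.1e-04), but with mitochondrial scaling it was log2 -0.057. The cytoplasm libraries overlapped (log2 0.34, SE 0.18, edgeR adjusted p = 0.12), and the difference passed with library totals (0.87) and with the mRNA-based factors (0.60). Per base, antisense came to between 0.971 and 1.11% of the mRNA in wild-type totals and to between 1.36 and 2.19% in mutant totals. The feature also covers 215 bases of the 3′ end of the convergent gene MRPL9, whose own transcript would be counted on the same strand. Its share of the antisense counts was not separated. MRPL9 is a mitochondrial ribosomal protein gene that overlaps the last 215 bases of CRM1. Its own feature, which reads RNA antisense to MRPL9, had 591, 567 and 656 counts in wild-type totals and 711, 637 and 701 in mutant totals (log2 -0.061, SE 0.12, edgeR adjusted p = 0.70). YGR219W lies inside MRPL9 on the other strand, and its own feature reads RNA in the direction of MRPL9 mRNA. This feature had 1027, 926 and 970 counts in wild-type totals and 908, 1145 and 1261 in mutant totals (log2 -0.067, SE 0.10, edgeR adjusted p = 0.61). It had 598, 838 and 743 counts in wild-type cytoplasm and 509, 497 and 725 in mutant cytoplasm, a fall of log2 -0.61 (SE 0.20, edgeR adjusted p = 0.023). That call was lost without wild-type cytoplasm replicate 3 (log2 -0.60) or mutant cytoplasm replicate 1 (-0.52) or 2 (-0.43). TOS2, which codes for a protein of the bud neck, lies farther on, and its own feature reads RNA antisense to TOS2. That feature had 289, 511 and 483 counts in wild-type cytoplasm and 699, 1008 and 780 in mutant cytoplasm, a rise of log2 0.67 (SE 0.16, edgeR adjusted p = 0.0051). On the strand that reads TOS2 mRNA, antisense1894 covers parts of MRPL9 and TOS2. It had 96, 152 and 111 counts in wild-type cytoplasm and 72, 94 and 107 in mutant cytoplasm, a fall of log2 -0.67 (SE 0.22, edgeR adjusted p = 0.024).

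The distribution of RNA was read as the cytoplasm to total ratio in each strain. Its scale is set by the other features of the same libraries, so each direction is relative to them. The ratio does not measure export on its own. With mitochondrial scaling all 6 features had positive values in wild type, between log2 0.38 and 1.32. In wild type, 22.3% of 11976 features were called higher in cytoplasm and 17.6% lower. MTR2 mRNA fell 1.24-fold (log2 -0.31, SE 0.10, edgeR adjusted p = 0.039), MEX67 mRNA did not pass the test (log2 0.19, SE 0.12, edgeR adjusted p = 0.23) and neither did CRM1 mRNA (log2 -0.26, SE 0.11, edgeR adjusted p = 0.085). Libraries with the same replicate number deviated together in wild type, and with the replicate block the CRM1 difference passed (log2 -0.26, edgeR adjusted p = 0.043). The MTR2 call was lost without any 1 of 5 of the 6 libraries, all but wild-type cytoplasm replicate 1, with log2 values between -0.34 and -0.30. MEX67 antisense fell 1.65-fold (log2 -0.73, SE 0.14, edgeR adjusted p = 0.0064), and the feature that reads DAP1 beside it fell by a like amount (log2 -0.66, SE 0.15, edgeR adjusted p = 0.011).

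In the mutant, 30% of 13763 features were called higher in cytoplasm and 28.7% lower. MTR2 mRNA fell 1.43-fold (log2 -0.52, SE 0.12, edgeR adjusted p = 0.0049), with no overlap between fractions, but with library totals as the scale the value was log2 -0.013 and the call was lost. MEX67 mRNA (log2 -0.03, SE 0.13) and CRM1 mRNA (log2 -0.18, SE 0.17) did not pass the test, with edgeR adjusted p of 0.83 and 0.38. MTR2 antisense rose 1.51-fold (log2 0.60, SE 0.21, edgeR adjusted p = 0.038) and CRM1 antisense fell 1.37-fold (log2 -0.46, SE 0.13, edgeR adjusted p = 0.016). The MTR2 antisense call was lost without any 1 of 5 of the 6 libraries, all but mutant total replicate 1, at log2 values between 0.46 and 0.63. The CRM1 antisense call was lost without mutant total replicate 1 (log2 -0.39) and with TMM factors from features that read mRNAs (-0.26), and with library totals the value was 0.051. With mitochondrial scaling the 3 mRNAs had log2 1.56, 1.13 and 1.40 for MEX67, MTR2 and CRM1. Across the strain comparisons, 25.6% of features were called lower in mutant totals and 28.9% in mutant cytoplasm, and none of the 3 genes was among them on either strand.

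Whether the 2 strains differ in their cytoplasm to total ratio was tested as an interaction, in which 4.57% of 13145 features were called higher in the mutant and 5.68% lower. None of the 3 mRNAs passed, with log2 values of -0.16 for MEX67 (SE 0.17, edgeR adjusted p = 0.56), -0.15 for MTR2 (SE 0.15, edgeR adjusted p = 0.56) and 0.14 for CRM1 (SE 0.20, edgeR adjusted p = 0.68). The median over the 4607 features that read mRNAs was -0.16. MEX67 antisense passed, with a ratio 1.90 times higher in the mutant (log2 0.92, SE 0.20, edgeR adjusted p = 0.013). MTR2 antisense had log2 1.18 (SE 0.43, edgeR adjusted p = 0.099) and passed without wild-type total replicate 1 or wild-type cytoplasm replicate 2, both at log2 1.44. With 30 to 186 counts per library, its ratio was the least precise of the 6.

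**Figure D3:**
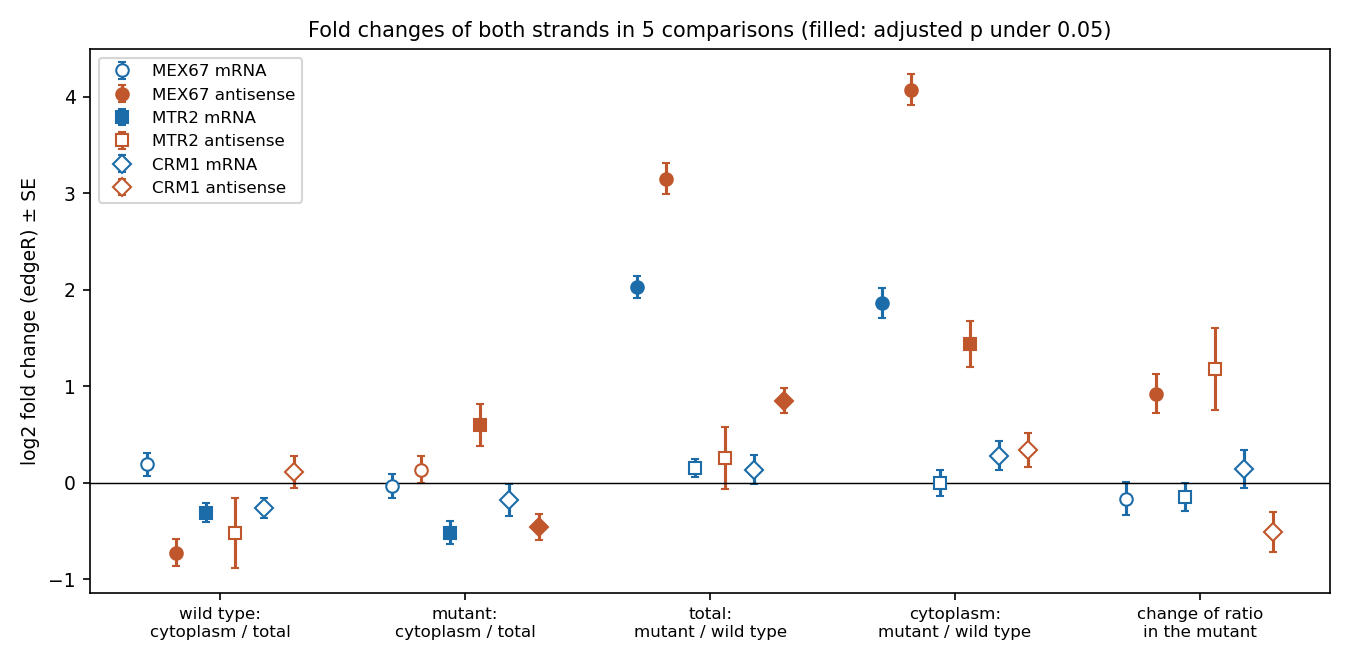
Fold changes on the log2 scale from edgeR with their SE for the mRNA (blue) and antisense (orange) strands of MEX67 (circles), MTR2 (squares) and CRM1 (diamonds) in the 5 comparisons; filled symbols have an adjusted p under 0.05. Both strands of MEX67 stand apart in the 2 strain comparisons, at log2 2.03 and 3.15 in totals, and no mRNA passes in the last column.

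The balance of the strands within each gene does not depend on scaling between libraries. The log2 ratio of antisense to mRNA counts per base was -1.98 ± 0.18 (SD, n = 3) at MEX67 in wild-type totals, -2.88 ± 0.21 in wild-type cytoplasm, -0.84 ± 0.17 in mutant totals and -0.67 ± 0.15 in mutant cytoplasm. At MTR2 it was -4.59 ± 0.64, -4.78 ± 0.45, -4.44 ± 0.39 and -3.28 ± 0.16 in the same order. At CRM1 it was -6.58 ± 0.10, -6.22 ± 0.31, -5.86 ± 0.34 and -6.15 ± 0.16. The exact two-sided permutation test of 3 libraries against 3 cannot give a p under 0.1, and 7 of the 12 comparisons reached that value with no overlap. None passed after Benjamini-Hochberg adjustment over the 12 exact tests, where the smallest adjusted p was 0.17.

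The other genes of the export pathway were read from 6 lists of 45 genes, of which 42 had an opposite-strand feature and all 42 passed the filter on low counts. Most that changed between the strains fell, as did most mRNAs that changed. In totals 2 rose and 24 fell, with a median of log2 -0.38, whereas of all 4542 features that read mRNAs 19.5% rose and 33.4% fell, with a median of -0.13. In cytoplasm 4 rose and 24 fell, with a median of -0.53, whereas of all 4652 such features 20.7% rose and 40.3% fell, with a median of -0.24. Over all features the shares were the 26.9% and 25.6% in totals and the 32.3% and 28.9% in cytoplasm given above. Among the adaptors that bring Mex67 to mRNA and the THO/TREX complex, 1 of 11 rose and 6 fell in totals. SUB2, the RNA helicase of TREX, fell in totals by log2 -1.08 (SE 0.14, edgeR adjusted p = 2.7e-04), whereas NAB2, a poly(A)-binding protein, rose by log2 0.27 (SE 0.10, edgeR adjusted p = 0.046).

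TREX-2 links transcribed genes to the pore, and 1 of its 5 genes rose and 3 fell in totals. Its scaffold SAC3 fell by log2 -0.87 and its subunit THP1 rose by log2 0.33 (edgeR adjusted p = 5.7e-04 and 0.014). Of the 8 genes of the Ran cycle and of Crm1 cofactors, none rose and 6 fell in totals, where 33.4% of all features that read mRNAs fell. Of the 6 genes of remodelling at the pore none rose and 3 fell, and of the 8 of cap binding and ribosomal subunit export none rose and 4 fell. Of 4 other exportins none rose and 2 fell, with PDR6 at log2 -0.92 (SE 0.12, edgeR adjusted p = 2.2e-04).

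In cytoplasm the largest falls were those of RRP12, an export factor of ribosomal subunits (log2 -1.62, SE 0.33), of SUB2 (log2 -1.45, SE 0.16) and of MOG1, a Ran-binding protein (log2 -1.43, SE 0.17), with edgeR adjusted p of 0.0021, 8.0e-05 and 9.8e-05. The 3 largest rises there were ECM1 and LTV1, factors of the large and small ribosomal subunit, at log2 0.76 and 0.68, and NAB2 at 0.65 (edgeR adjusted p between 0.0017 and 0.0025). ECM1 is read here from a coding feature on the other strand, so its value is uncertain. The same holds for SUS1 and SEM1 of TREX-2 and for NTF2 of the Ran cycle. Some genes are read from long features that can also hold RNA of neighbouring genes. Among them are SAC3 (9785 bases), MLP2 (10599), MSN5 (9768) and STO1 (6903).

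**Figure D4:**
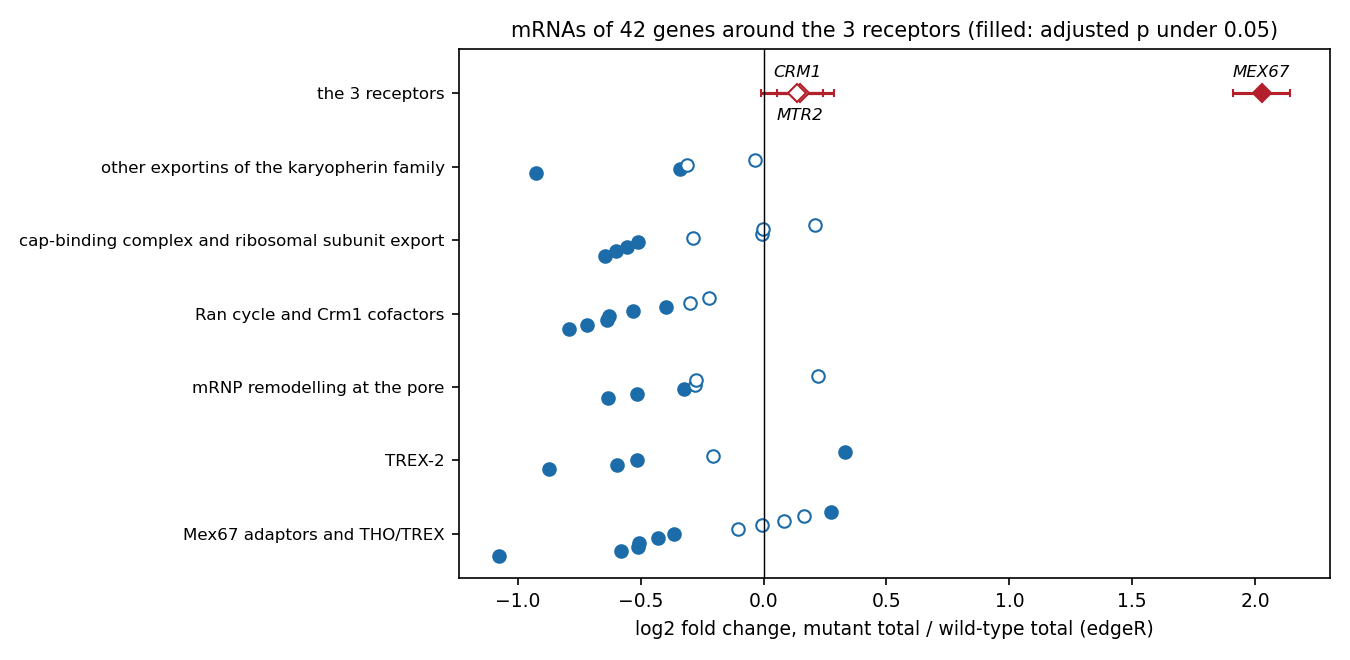
Fold change on the log2 scale between mutant and wild-type totals (edgeR) for the mRNAs of 42 genes in 6 lists (blue circles) and of the 3 receptors (red diamonds, with SE); filled symbols have an adjusted p under 0.05. MEX67 at log2 2.03 lies beyond all 42 list genes, of which the highest that passed is THP1 at 0.33.

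Within the strains, 3 of the 42 rose and 17 fell in the cytoplasm of wild type, with a median of log2 -0.20, and 3 rose and 21 fell in that of the mutant, with a median of -0.38. Of all features that read mRNAs, 21.1% rose and 21.4% fell in wild type, with a median of -0.04, and 19.9% rose and 39.9% fell in the mutant, with a median of -0.22. In wild type SUB2, ECM1 and CDC31, the centrin of TREX-2, fell by log2 between -0.77 and -0.75, and MLP2 of the nuclear basket (log2 0.73), MOG1 (0.54) and the exportin MSN5 (0.38) rose (edgeR adjusted p between 0.0032 and 0.025). In the mutant RNA1, the GTPase-activating protein of Ran, fell most (log2 -1.26, SE 0.16, edgeR adjusted p = 3.2e-04), before SUB2 (-1.20) and RRP12 (-1.17). STO1, the large subunit of the nuclear cap-binding complex, rose (log2 0.59, SE 0.13, edgeR adjusted p = 0.0044), as did MLP2 (0.44) and MSN5 (0.36). In the interaction 3 rose and 1 fell, against 4.17% and 7.81% of all features that read mRNAs. ECM1 (log2 1.05), STO1 (0.61) and YRB2 (0.54), a Ran-binding cofactor of Crm1, were higher and MOG1 (-0.71) was lower (edgeR adjusted p between 0.0061 and 0.037).

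Genes with a pattern most like each member were ranked by Pearson's r of log2 CPM over the 12 libraries, among 5730 genes not within 5000 bases of a member. These 12 points fall into 4 groups, so r follows the group means and is given as a description. For MEX67 the nearest were MUP3, an amino acid permease (r = 0.989), AAD14, a putative aryl-alcohol dehydrogenase (0.989), and OPT2, an oligopeptide transporter (0.986). MUP3 had 12.7 CPM in wild-type totals and 128.7 in mutant totals. For MTR2 they were the ubiquitin ligase gene PSH1 and its neighbour AIM39, both read from 1 feature (0.984), and NHP10 (0.973), a subunit of a chromatin remodeller. For CRM1 they were MAL12 (0.884), a maltase, IMD2 (0.826), which acts in GTP synthesis, and BNA2 (0.824), which acts in NAD synthesis. The closest likeness was thus weaker for CRM1 than for the other two.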

How the data were processed

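RNA-seq of 12 libraries was used, 3 each of total lysate and cytoplasm from wild type and from mex67-5 xpo1-1. The authors demultiplexed with bcl2fastq (version 2.17.1.14), aligned to sacCer3 with STAR (version 2.5.2a) and counted with featureCounts (version 1.5.0-p1), per the labels, and deposited raw counts per feature. The strand and overlap settings are not given in the sources used here. Features that overlap on 1 strand can hold the same reads. Coordinates are those of the deposited annotation.

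Each comparison had its own fit in edgeR (version 4.0.16, under R 4.3.3), with TMM factors and the quasi-likelihood test, over all features whose mean count was above 40. P-values were adjusted by Benjamini-Hochberg and called under 0.05. CPM used the TMM library sizes, and log2 CPM a prior count of 2. Strand ratios were compared by an exact permutation test (scipy version 1.17.1). Scripts were tested on simulated data. Named are the 3 genes, features within 1000 bases, the strain markers, the 3 most similar genes of each member, and up to 3 genes per direction from the pathway lists past the threshold. Features farther out were chosen after seeing the data. The members and lists were chosen with earlier results of these data known.

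By the methods total lysate and cytoplasm come from the same shifted suspension, but the main fits held no replicate block. Replicate numbers pair the wild-type libraries, where deviations from the group means correlated at 0.245, 0.394 and 0.115 within pairs. They did not do so in the mutant (0.383, -0.355 and -0.190) or between strains in totals (0.031, 0.045 and 0.057). Between strains in cytoplasm the values were 0.094, 0.274 and 0.180, where replicates 2 and 3 but not 1 correlated best with their own number. Replicates differed by more than sampling noise. Alternatives were library totals, TMM factors from features that read mRNAs, mitochondrial scaling, DESeq2 (version 1.42.0), no filter, all 12 libraries in 1 fit, the replicate block and leaving out each library. Counting error limits features with few counts, and overlapping genes and reads shared between plasmid and chromosome were not separated.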

Additional observations from a re-analysis of the deposited data

Results flagged for a closer look

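For 3 features the cytoplasm to total ratio differed between the strains by the interaction test of edgeR. The antisense feature of MEX67 had a log2 difference of 0.92 (SE 0.20, edgeR adjusted p = 0.013), from a fall in wild-type cytoplasm to no called change in the mutant. The own feature of YKL187C, next to MTR2 on its 3′ side, reads RNA antisense to YKL187C and had 0.92 (SE 0.18, edgeR adjusted p = 0.0080). Its counts were 168, 166 and 195 in totals and 170, 239 and 231 in cytoplasm of wild type. In the mutant they were 217, 204 and 286 in totals and 522, 635 and 506 in cytoplasm. The own feature of TOS2, beyond the 3′ end of CRM1, reads RNA antisense to TOS2 and had 0.75 (SE 0.19, edgeR adjusted p = 0.027). Its counts were 477, 443 and 547 in totals and 289, 511 and 483 in cytoplasm of wild type. In the mutant they were 509, 565 and 574 in totals and 699, 1008 and 780 in cytoplasm. The TOS2 call was lost without wild-type total replicate 2 (0.75) or 3 (0.66), mutant total replicate 1 (0.76) or mutant cytoplasm replicate 2 (0.73). Groups of 3 libraries are too small for the test of single outlying libraries.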

How the results depend on the processing

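The strain differences of both strands of MEX67 kept their direction and passed under each of the alternatives. The 3 other scalings moved the median of all features by log2 0.14, 0.50, 0.23, 0.53 and 0.31 (library totals), 0.07, 0.20, 0.12, 0.26 and 0.08 (TMM from features that read mRNAs) and 1.13, 1.61, -0.91, -0.49 and 0.42 (mitochondrial), in the order wild-type fractions, mutant fractions, totals, cytoplasms and interaction and the 30 values of the 3 genes by as much to within 0.0704, as a change of scale does by construction. The cause of other changes was not tested.

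Wild-type fractions. Mitochondrial scaling gave log2 1.32, 0.82 and 0.87 for the mRNAs of MEX67, MTR2 and CRM1 and 0.38, 0.68 and 1.26 for their antisense. MTR2 mRNA lost its call with library totals (-0.17) and mRNA factors (-0.24), and CRM1 mRNA passed with DESeq2 (-0.28), no filter (-0.39) and the replicate block (-0.26). CRM1 antisense was -0.023 with no filter. Without 1 library, MTR2 mRNA ranged from -0.34 to -0.30 and CRM1 antisense from -0.045 to 0.21.

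Mutant fractions. Mitochondrial scaling gave 1.56, 1.13 and 1.40 for the mRNAs, and 1.75 and 1.142 for MEX67 and CRM1 antisense. Library totals gave 0.47, -0.013 and 0.33 for the mRNAs, and 0.65 and 0.051 for those antisense features, so that MTR2 mRNA and CRM1 antisense lost their calls and MEX67 passed on both strands. With mRNA factors MEX67 and CRM1 mRNA were 0.16 and 0.026, and CRM1 antisense (-0.26) lost its call. MTR2 antisense lost its call with no filter (0.51), all 12 libraries in 1 fit (0.63) and the replicate block (0.63). Without 1 library it ranged from 0.46 to 0.86, CRM1 antisense from -0.50 to -0.39 and MEX67 mRNA from -0.063 to 0.016.

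Totals. Mitochondrial scaling turned MTR2 mRNA (-0.77) and antisense (-0.65) and CRM1 mRNA (-0.74) and antisense (-0.057), and beside MTR2 SUT223 (-0.0039), XUT_11F-36 (-0.34), antisense1594 (-0.27) and SUT224 (-0.34). MTR2 mRNA passed with library totals (0.37) and mRNA factors (0.27). Without 1 library MTR2 antisense ranged from -0.012 to 0.63.

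Cytoplasms. MTR2 mRNA, at 0.00067, was 0.53 and passed with library totals, and was -0.46 with mitochondrial scaling, -0.049 with DESeq2, -0.095 with no filter, -0.016 in 1 fit and -0.0039 with the replicate block, and from -0.057 to 0.098 without 1 library. CRM1 mRNA and antisense were 0.82 and 0.87 with library totals and 0.55 and 0.60 with mRNA factors, all 4 of which passed, and -0.21 and -0.18 with mitochondrial scaling.

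Interaction. MEX67 and MTR2 mRNA were 0.15 and 0.16 with library totals and 0.25 and 0.31 with mitochondrial scaling, where MEX67 antisense (1.37) lost its call. MTR2 antisense passed with library totals (1.48), DESeq2 (1.22) and the replicate block (1.20) and ranged from 0.81 to 1.44 without 1 library.

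Counts of called features moved too. Library totals changed 4132 higher and 3953 lower in the mutant fractions to 7096 and 976, 4383 and 3924 in the cytoplasms to 7192 and 1619, and 601 and 746 in the interaction to 1383 and 289. In totals 3167 lower became 1604 and in the wild-type fractions 2105 lower became 1203. Mitochondrial scaling gave 10545 higher and 50 lower, 11721 and 36, 650 and 7002, and 83 and 10 for wild-type fractions, mutant fractions, totals and interaction, and 1695 higher in the cytoplasms. Without wild-type total or cytoplasm replicate 3, the wild-type fractions had 1746 higher and 1345 lower, or 1584 and 1269. In the interaction, higher features fell to between 318 and 397 without any 1 of 5 libraries, and lower ones to between 329 and 495 without any 1 of 7 and rose to 1121 without wild-type cytoplasm replicate 2. With the block, no other call of the 3 genes changed than those given. The alternative of another opposite-strand feature gave no value, because only 1 covers enough of each gene.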
